A study of Mus musculus with 4 samples.

Results

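Polyamine metabolism was followed here through 10 genes, chosen by symbol and found as 10 of the 28443 genes of the count table. They were taken in 3 roles, namely synthesis (Odc1, Srm, Sms and Amd1), antizyme control (Azin1, Oaz1 and Oaz2) and breakdown (Sat1, Smox and Paox). The RNA-seq libraries came from macrophages grown out of bone marrow (BMDMs), labelled early osteoclasts, after 1 day with 50 ng/ml RANKL, the cytokine that drives macrophage precursors toward bone-resorbing osteoclasts. There were 2 MYC-deficient libraries, from MYC f/f LysM-Cre mice, and 2 MYC-WT libraries, from LysM-Cre mice. All mice were 8 weeks old, and the cells of every library carried LysM-Cre and received RANKL. LysM-Cre is active in myeloid cells, so floxed Myc is removed in macrophages and in other cells of that lineage.

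Putrescine, spermidine and spermine are small positively charged molecules that bind RNA and DNA and are needed for growth and translation. Ornithine decarboxylase (ODC1) makes putrescine from ornithine. S-adenosylmethionine decarboxylase (AMD1) supplies the aminopropyl group that spermidine synthase (SRM) and then spermine synthase (SMS) add. Antizymes bind ODC1 and send it to the proteasome, and the antizyme inhibitor AZIN1 takes antizyme away from ODC1. SAT1 acetylates spermidine and spermine, PAOX oxidises the acetylated forms, and SMOX turns spermine back into spermidine. Odc1 is a textbook MYC target, bound at CACGTG elements (E-boxes), and Srm has also been described as one.

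The libraries held 27544806 to 35794698 counts. Levels are given as CPM, the count of a gene divided by the library's total on the usual scale, and a mean with its SD is over n = 2 libraries per genotype. A gene passed the test at an adjusted p under 0.05 in edgeR's quasi-likelihood test and a fold change over 1.5, and "rose" or "fell" is used only of such genes. Myc, the deleted gene, had 17.7 and 24.2 CPM in MYC-deficient cells, against 230.4 and 249.9 CPM in MYC-WT cells. It fell 11.2-fold (edgeR quasi-likelihood adjusted p = 0.00711). The counts that remained cannot be placed, because the sources used here do not give the part of the gene that is removed. In bulk RNA, fewer cells of a kind and less RNA per cell cannot be told apart.

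Of the 4 synthesis genes 3 fell in MYC-deficient cells, whereas no gene of antizyme control or of breakdown passed the test. All 10 genes passed the filter on low counts. Of these, 3 were called lower, Srm, Odc1 and Amd1, while 9.91% of the 13436 genes tested were called lower. In edgeR's test 0 members were called higher, while 6.06% of all genes tested were called higher. At an unadjusted p under 0.05 there were 5 of the 10, beside 36.3% of all genes tested, and 1 of them, Azin1, was higher in MYC-deficient cells, beside 16.0% of all genes. DESeq2 called 0 members higher and the same number, 3, lower, beside 1091 higher and 1306 lower of the 12394 genes it tested. Without MYC-WT replicate 2 only Srm was called, and Amd1 was not called without MYC-WT replicate 1. In 4 members both MYC-deficient libraries lay below both MYC-WT libraries, against 35.9% of all genes, and in 3 members both lay above, against 27.5% of all genes. The median log2 fold change was -1.13 over the synthesis genes, 0.10 over antizyme control and 0.18 over breakdown, beside -0.01 over all genes tested.

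**Figure D1:**
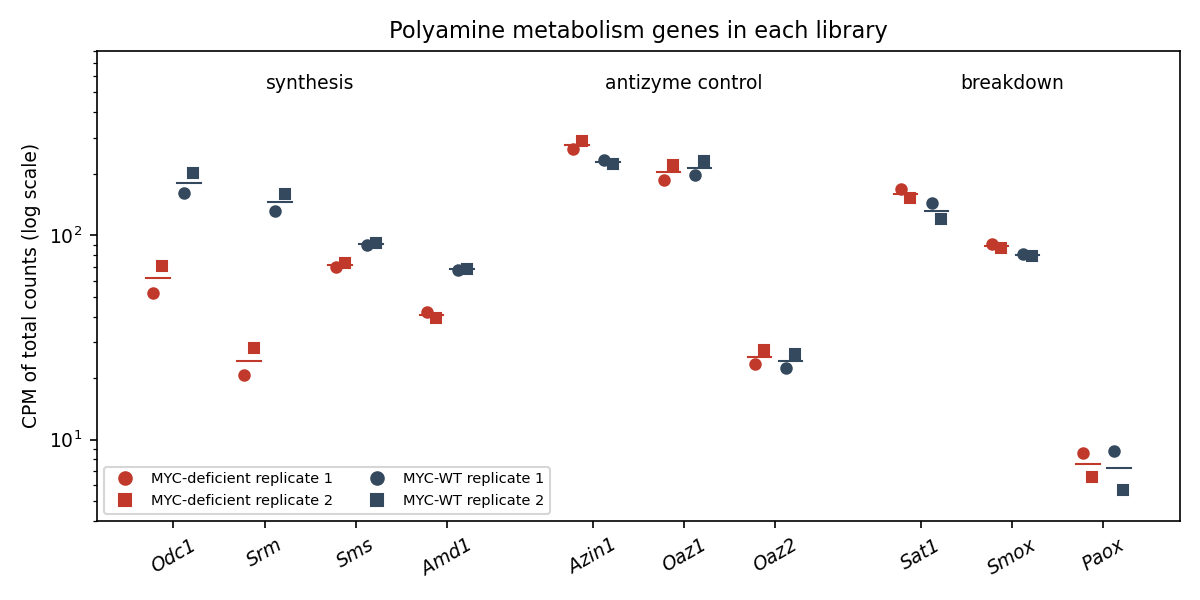
CPM of total counts (log axis) of the 10 genes in each library, by role, with MYC-deficient libraries in red to the left of MYC-WT libraries in blue. Circles are replicate 1, squares replicate 2 and bars the genotype means. The MYC-deficient points lie clear below the MYC-WT points for Srm, Odc1 and Amd1, and the points of Oaz1, Oaz2 and Paox overlap.

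Srm, the enzyme that makes spermidine, changed more than any other member. It had 20.7 and 28.0 CPM in MYC-deficient cells, against 131 and 159 CPM in MYC-WT cells. Both MYC-deficient libraries were low, and the gap to the nearer MYC-WT library was larger than the distance between replicates of either genotype. The mean was 24.4 ± 5.13 CPM in MYC-deficient cells, against 145 ± 19.6 CPM in MYC-WT cells (SD, n = 2 per genotype). Srm fell 5.85-fold (log2 fold change -2.55, SE 0.21, 95% interval -3.07 to -2.03, edgeR quasi-likelihood adjusted p = 0.00736). Among all genes tested, 65 (0.484%) had a more negative log2 fold change. The gene lies on the plus strand at chr4:148591503-148594993 (mm10). Srm passed the test under each of the 15 other settings tried on every member. Those that alter only the fold threshold reuse the main fit, so there its passing followed from the values above.

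Odc1 encodes the first and usually rate-limiting enzyme of the pathway. It had 52.3 and 70.7 CPM in MYC-deficient cells, against 160.8 and 201.3 CPM in MYC-WT cells. The genotypes did not overlap, and in both genotypes replicate 2 was the higher library. Odc1 averaged 61.5 ± 13 CPM in MYC-deficient cells, against 181 ± 28.6 CPM in MYC-WT cells, and it fell 2.89-fold (log2 fold change -1.53, SE 0.21, 95% interval -2.05 to -1.01, edgeR quasi-likelihood adjusted p = 0.0132). A more negative value was seen for 2.6% of the genes tested. Odc1 lies on the plus strand at chr12:17544794-17551505. Without MYC-WT replicate 2 the log2 fold change of Odc1 was -1.34 and it no longer passed (adjusted p = 0.0578).

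Amd1, on the minus strand at chr10:40287458-40302186, whose product feeds both aminopropyl transfers, had a smaller fold change. It had 42.1 and 39.3 CPM in MYC-deficient cells, against 67.9 and 68.7 CPM in MYC-WT cells. Replicates lay close together here, with means of 40.7 ± 1.93 CPM in MYC-deficient cells, against 68.3 ± 0.592 CPM in MYC-WT cells. The gene fell 1.65-fold (log2 fold change -0.72, SE 0.10, 95% interval -0.98 to -0.46, edgeR quasi-likelihood adjusted p = 0.0145), and 12.1% of the genes tested had a more negative value. The fall of Amd1 was near the fold threshold of 1.5, since the interval reached past it toward 0, and it did not pass without MYC-WT replicate 1 (adjusted p = 0.0529) or without MYC-WT replicate 2 (adjusted p = 0.0883). Amd2 is a near-identical copy, with 85.7% of its 50-base windows also found in Amd1, but it and the Amd pseudogene rows together held only 8 to 21 counts in any library. No source used here tells how reads that match several copies were counted, for these genes or for the copies of Sms and Oaz1. Few counts therefore do not show that a copy was little expressed. Summed with these rows, Amd1 had a log2 fold change of -0.72 (adjusted p = 0.0148).

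Sms, on chrX:157443855-157492287, which turns spermidine into spermine, did not pass the test. It had 69.8 and 73.1 CPM in MYC-deficient cells, against 89.7 and 91.2 CPM in MYC-WT cells. The genotypes did not overlap, yet the difference was small, with a log2 fold change of -0.31 (SE 0.10, 95% interval -0.57 to -0.06, edgeR quasi-likelihood adjusted p = 0.088). Summed with the pseudogene row Sms-ps, an alternative chosen after the data were seen, it was -0.32. The synthases of spermidine and spermine thus had unequal values. There were 0.297 and 0.383 Srm counts per Sms count in MYC-deficient libraries, against 1.46 and 1.74 in MYC-WT libraries.

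To show what lies at the starts of the synthesis genes, promoter windows of 250 bases before each annotated start were taken from RefSeq (GRCm38.p6). They were searched on both strands for the E-box CACGTG, the element MYC and MAX bind, and for the GC box GGGCGG, an element bound by SP1 family factors; these motifs do not overlap each other. Of the 10 members 8 had windows, 10 windows in all, while Srm and Azin1 had none and were not searched. CACGTG was found in 1 of the 10 windows, beside 6.02% of the 32851 windows of all genes, and the GC box in 8 of the 10, beside 32.7%. These shares take in genes not tested here, and shares among the tested genes were not taken. Sms and Paox each had more than 1 of the 10 windows. A match is a run of letters and not a measured binding site. The stretches of Odc1 (chr12:17544623-17544793, plus strand) and Amd1 (chr10:40302189-40302438, minus strand) are shown because both genes fell and neither window held CACGTG. Capitals mark GC boxes on either strand, and the Odc1 stretch is ended where the gene begins in the deposited table.
Odc1: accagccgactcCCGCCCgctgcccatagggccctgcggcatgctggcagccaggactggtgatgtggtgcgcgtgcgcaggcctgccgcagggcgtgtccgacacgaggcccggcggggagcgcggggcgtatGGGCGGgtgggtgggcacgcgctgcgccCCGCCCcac
Amd1: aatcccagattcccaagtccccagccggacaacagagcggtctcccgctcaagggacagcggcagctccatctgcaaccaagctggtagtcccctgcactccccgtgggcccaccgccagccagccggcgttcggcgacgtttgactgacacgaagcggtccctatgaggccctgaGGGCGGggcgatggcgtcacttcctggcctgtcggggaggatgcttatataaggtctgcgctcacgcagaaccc

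The full Odc1 window held 4 GC boxes and the Amd1 window 1. Windows of genes that did not pass held them too, with 6 for Smox, 3 for Oaz2 and 2 for Sat1. A window of Sms held 4, while that of Oaz1 held 0. The single CACGTG among the 8 members searched, which leave out Srm, lay 196 bases before a start of Sms, the synthesis gene that did not pass. It is shown with 20 bases on either side (chrX:157492458-157492503, minus strand), with the E-box in capitals.
Sms: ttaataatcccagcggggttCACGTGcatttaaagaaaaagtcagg

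The windows cover only the bases just upstream, and introns, those of Odc1 among them, were not searched. A window without CACGTG therefore does not bear on the elements described for Odc1.

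The antizyme genes showed no detectable difference at this depth and replication. Oaz1, the main antizyme, had 186 and 222 CPM in MYC-deficient cells, against 198 and 231 CPM in MYC-WT cells. The genotypes overlapped, and replicate 2 was the higher library in each. The log2 fold change of Oaz1 was -0.05 (SE 0.15, 95% interval -0.43 to 0.34, edgeR quasi-likelihood adjusted p = 0.857). Oaz2, a second antizyme, had 23.3 and 27.6 CPM in MYC-deficient cells, against 22.3 and 26.2 CPM in MYC-WT cells. Its genotypes overlapped as well, with a log2 fold change of 0.10 (SE 0.16, 95% interval -0.31 to 0.50, edgeR quasi-likelihood adjusted p = 0.705). The signs of both values turned when a library was left out. The pseudogene row Oaz1-ps, with 92.1% of its 50-base windows found in Oaz1, held 250 and 236 counts in MYC-deficient and 227 and 287 counts in MYC-WT libraries, and adding it left Oaz1 at -0.05.

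Antizyme is made only when ribosomes slip by a base and read past an early stop codon, a step that polyamines favour, so the RNA level of Oaz1 and Oaz2 does not give the amount of antizyme. The site is shown because that control is not seen in RNA counts. The lines below are from GENCODE M21 transcripts, with the TGA stop of the first frame in capitals.
Oaz1: gggcctcggtggtgctccTGAtgtccc
Oaz2: gggcctctgtggtgctccTGAtgcccc

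The genes share this site but for 2 of 27 bases.

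Azin1, the antizyme inhibitor, which resembles ODC1 but has no decarboxylase activity, had 264 and 290 CPM in MYC-deficient cells, against 234 and 223 CPM in MYC-WT cells. Both MYC-deficient libraries were above both MYC-WT libraries. The difference did not pass the test, with a log2 fold change of 0.31 (SE 0.11, 95% interval 0.02 to 0.59, edgeR quasi-likelihood adjusted p = 0.116). Its sign was positive under all 15 other settings, though those that alter only the fold threshold could not change it. Azin1 is on the same chromosome as Myc, chr15:38487427-38519266, 23.5 Mb away, so alleles linked to the floxed Myc gene and MYC loss cannot be told apart for this gene.

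Odc1 and its regulators were also set side by side within each library as ratios of counts, which do not depend on the scaling between libraries. There were 0.282 and 0.319 Odc1 counts per Oaz1 count in MYC-deficient libraries, against 0.814 and 0.871 in MYC-WT libraries. Odc1 counts per Azin1 count were 0.198 and 0.244 in MYC-deficient libraries, against 0.689 and 0.905 in MYC-WT libraries. Both ratios were lower in each MYC-deficient library, and Odc1 was the gene of each pair that passed the test. Azin1 counts per Oaz1 count were 1.42 and 1.31 in MYC-deficient libraries, against 1.18 and 0.963 in MYC-WT libraries, with no overlap. Neither gene of this pair passed the test, and non-overlap was not counted over other pairs of genes.

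**Figure D2:**
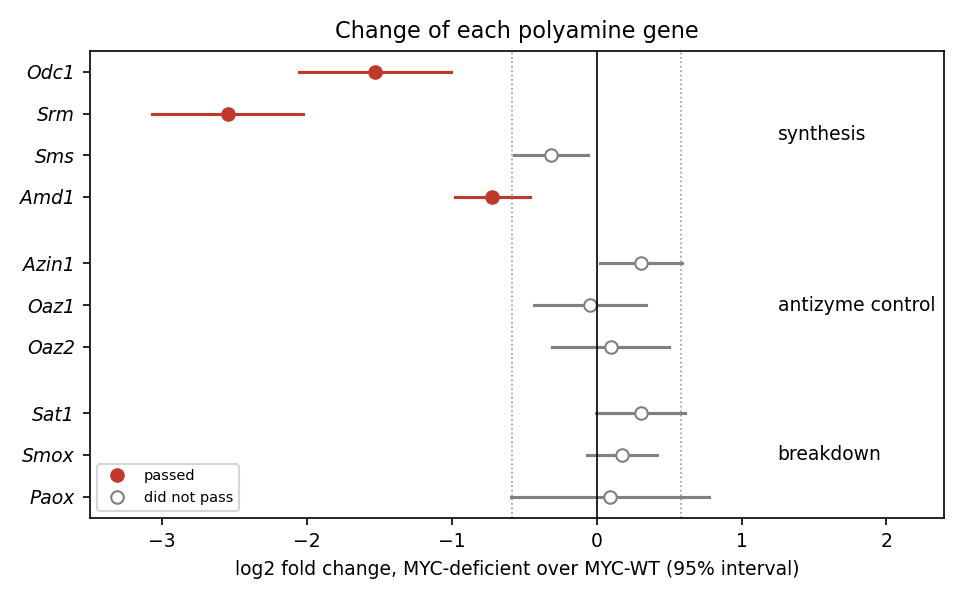
Fitted log2 fold change (MYC-deficient over MYC-WT) of each gene with its 95% interval, by role. Filled red points passed the test and open points did not, and dotted lines mark a fold of 1.5 in either direction. Srm at -2.55 and Odc1 at -1.53 lie clear of the dotted line, and the interval of Amd1 crosses it.

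Of the breakdown genes 0 passed in edgeR's test or with DESeq2, and 0 had an unadjusted p under 0.05, while all 3 had positive log2 fold changes. Sat1, the acetyltransferase that starts polyamine export and breakdown, had 168 and 152 CPM in MYC-deficient cells, against 144 and 121 CPM in MYC-WT cells. The genotypes did not overlap, and replicate 1 was the higher library in each. The log2 fold change of Sat1 was 0.30 (SE 0.12, 95% interval -0.0017 to 0.61, edgeR quasi-likelihood adjusted p = 0.139). Smox, spermine oxidase, had 90.5 and 86.9 CPM in MYC-deficient cells, against 81.0 and 78.8 CPM in MYC-WT cells. It too did not overlap, with a log2 fold change of 0.18 (SE 0.10, 95% interval -0.06 to 0.42, edgeR quasi-likelihood adjusted p = 0.241). The values of Sat1 and Smox stayed positive under all 15 other settings, though those that alter only the fold threshold could not change the sign.

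Paox, the oxidase of acetylated polyamines, was the least abundant member. It had 8.58 and 6.54 CPM in MYC-deficient cells, against 8.79 and 5.70 CPM in MYC-WT cells. The replicates of a genotype differed more than the genotypes did, with a log2 fold change of 0.09 (SE 0.27, 95% interval -0.59 to 0.78, edgeR quasi-likelihood adjusted p = 0.84), and the sign turned when a library was left out. Paox overlaps Echs1 on the opposite strand. No source used here gives the strand setting of the counting, and reads from the overlap cannot be assigned with certainty. Odc1, Oaz1 and Azin1 likewise hold the rows of small RNA genes within them.

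Summed over a role, synthesis genes had 184.9 and 211.1 CPM in MYC-deficient cells, against 449.5 and 520.1 CPM in MYC-WT cells. Antizyme control genes summed to 472.9 and 538.6 CPM in MYC-deficient cells, against 453.6 and 479.8 CPM in MYC-WT cells, with overlap. Breakdown genes summed to 267.2 and 245.2 CPM in MYC-deficient cells, against 233.3 and 205.3 CPM in MYC-WT cells, with no overlap. These sums are dominated by the more abundant genes of a role. Measured against Sat1 in the same library, there were 0.311 and 0.466 Odc1 counts per Sat1 count in MYC-deficient libraries, against 1.12 and 1.67 in MYC-WT libraries. Srm counts per Sat1 count were 0.123 and 0.184 in MYC-deficient libraries, against 0.914 and 1.32 in MYC-WT libraries. Amd1 counts per Sat1 count were 0.25 and 0.259 in MYC-deficient libraries, against 0.473 and 0.569 in MYC-WT libraries. All 3 ratios of a synthesis gene to the acetyltransferase were lower in each MYC-deficient library, which follows from the CPM values given above. The 3 synthesis genes are those called lower, and Sms was not set against Sat1.

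**Figure D3:**
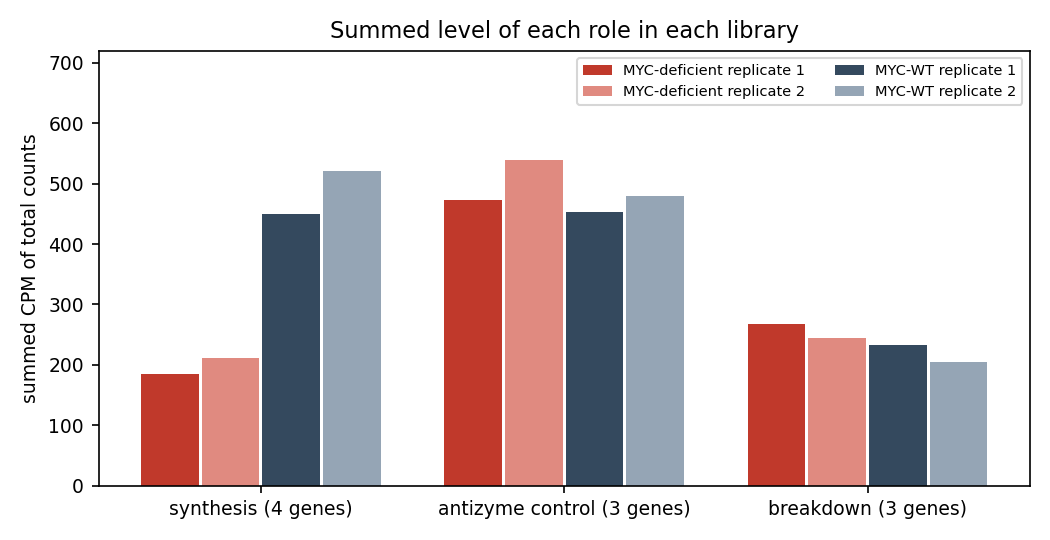
Summed CPM of total counts of the genes of each role in each library, MYC-deficient libraries in red shades left of MYC-WT libraries in blue shades. The synthesis bars stand at 184.9 and 211.1 CPM in MYC-deficient libraries, against 449.5 and 520.1 CPM in MYC-WT libraries, and the bars of the other roles lie close together.

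Levels of different genes were compared as CPM per kilobase of exons. The order depends on these lengths, such as 1599 bases for Srm and 2558 bases for Oaz1. They are unions of all annotated exons, not lengths of the transcripts present. The union takes up nearly all of the Oaz1 span (chr10:80826656-80829290). It also takes up most of the Sat1 span (2774 bases, chrX:155213132-155216449), but a smaller part of that of Srm. Values per kilobase can therefore be too low for Oaz1 and Sat1 beside Srm. By mean CPM of total counts alone, Azin1 (228), Oaz1 (214) and Odc1 (181) stood above Srm (145) in MYC-WT cells. Per kilobase, Oaz1 had the highest value in MYC-deficient cells, at 79.6 ± 9.9, and stood at 83.8 ± 9.22 in MYC-WT cells. Srm had the highest value by these lengths in MYC-WT cells, at 90.7 ± 12.3, where it overlapped Oaz1. In MYC-deficient cells Srm had 15.2 ± 3.21 CPM per kilobase and was the sixth in order. Odc1 had 18.1 ± 3.82 CPM per kilobase in MYC-deficient and 53.2 ± 8.4 in MYC-WT cells, the fifth and the third in order. In MYC-deficient cells the order was Oaz1, Sat1, Azin1, Smox, Odc1, Srm, Sms, Amd1, Oaz2 and Paox, and the libraries of the neighbours Odc1 and Srm overlapped, as did those of Sms and Amd1. In MYC-WT cells it was Srm, Oaz1, Odc1, Sat1, Azin1, Smox, Amd1, Sms, Oaz2 and Paox, with overlap between Srm and Oaz1 and between Odc1 and Sat1. By these lengths, Sat1, Azin1 and Smox stood above each synthesis gene in MYC-deficient cells. In MYC-WT cells their means stood below those of Srm and Odc1.

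The steps that feed and use polyamines were followed in 5 further lists, of 45 genes, 42 of them in the table and 33 tested. In these lists 13 of the 33 were called lower (39.4%) and 1 was called higher (3.03%), beside 9.91% and 6.06% of all genes tested, with a median log2 fold change of -0.59. Calls of lower genes numbered 8 when MYC-WT replicate 1 was left out and 4 when MYC-WT replicate 2 was, fits in which the calls of lower genes over the whole table were 693 and 199, against 1331 with all libraries. Among the polyamine paralogs, 3 of 6 could be tested and 0 passed, with 0 at an unadjusted p under 0.05 and 0 called by DESeq2. Azin2, a second antizyme inhibitor, had 3.83 and 7.12 CPM in MYC-deficient cells, against 2.20 and 3.57 CPM in MYC-WT cells (log2 fold change 0.95, edgeR quasi-likelihood adjusted p = 0.169). Of the 4 transport genes tested 0 passed in edgeR's test, with 1 at an unadjusted p under 0.05 (Slc18b1, log2 fold change -1.24, adjusted p = 0.0984) and 0 called by DESeq2, and the lysosomal polyamine exporter Atp13a2 had a log2 fold change of 0.02.

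Of the genes that supply ornithine and arginine, 9 were tested, 3 were called lower and 1 higher, beside 9.91% and 6.06% of all genes tested. Aldh18a1, which makes the precursor of proline and ornithine from glutamate, had 19.1 and 22.7 CPM in MYC-deficient cells, against 54.9 and 68.6 CPM in MYC-WT cells, and fell 2.90-fold (edgeR quasi-likelihood adjusted p = 0.0101). Slc7a1, an arginine, lysine and ornithine transporter, had 51.1 and 65.0 CPM in MYC-deficient cells, against 138.7 and 178.1 CPM in MYC-WT cells, and fell 2.68-fold (adjusted p = 0.0136 in the same edgeR test). Nos2, the inducible nitric oxide synthase that also uses arginine, was called lower on only 3 and 3 counts in MYC-deficient libraries, against 12 and 14 counts in MYC-WT libraries. Ass1, which makes argininosuccinate on the way to arginine, had 61.7 and 74.4 CPM in MYC-deficient cells, against 37.7 and 44.9 CPM in MYC-WT cells, and rose 1.68-fold (edgeR quasi-likelihood adjusted p = 0.0346). It was no longer called when MYC-deficient replicate 2 or either MYC-WT library was left out. The arginases, which make ornithine, were nearly absent. Arg1 had 9 and 42 counts in MYC-deficient libraries, against 15 and 21 counts in MYC-WT libraries, and Arg2 had 6 and 5 counts in MYC-deficient libraries, against 3 and 5 counts in MYC-WT libraries. Oat, the ornithine aminotransferase, had 146 and 134 CPM in MYC-deficient cells, against 157 and 143 CPM in MYC-WT cells, and did not pass.

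Each aminopropyl transfer uses decarboxylated S-adenosylmethionine and leaves methylthioadenosine, which the salvage pathway returns to methionine. Of 13 methionine cycle and salvage genes tested, 8 were called lower and 0 higher, beside 9.91% and 6.06% of all genes tested. Their median log2 fold change was -0.63. At an unadjusted p under 0.05, 1 was higher, beside 16.0% of all genes, and DESeq2 called 7 of the 13 lower and 0 higher. Mtap, which splits methylthioadenosine, had 38.3 and 49.5 CPM in MYC-deficient cells, against 129.3 and 140.7 CPM in MYC-WT cells, and fell 3.02-fold (edgeR quasi-likelihood adjusted p = 0.00888). Mri1, the next enzyme of salvage, had 14.8 and 16.3 CPM in MYC-deficient cells, against 41.3 and 46.2 CPM in MYC-WT cells, and fell 2.76-fold (adjusted p = 0.00769 in the same edgeR test). Ahcy, which hydrolyses S-adenosylhomocysteine, had 19.3 and 20.1 CPM in MYC-deficient cells, against 49.5 and 56.4 CPM in MYC-WT cells, and fell 2.64-fold. Got1, a cytosolic aspartate aminotransferase, fell 1.70-fold, with 45.6 and 49.1 CPM in MYC-deficient cells, against 79.0 and 85.2 CPM in MYC-WT cells. These 4 genes were picked from those called lower, and their genotypes did not overlap. Of all genes tested, 35.9% were lower without overlap. Mat2a, which makes S-adenosylmethionine, Adi1, Mtrr and Enoph1 were the others called lower.

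Spermidine is also the donor for hypusine, a modified lysine of the translation factor eIF5A. Of the 4 genes of this step 2 were called lower and 0 higher, by edgeR and by DESeq2, and 0 were higher at an unadjusted p under 0.05. The shares over all genes tested were 9.91% lower and 6.06% higher in edgeR's test. Eif5a had 478.3 and 626.8 CPM in MYC-deficient cells, against 1204 and 1432 CPM in MYC-WT cells, and fell 2.34-fold (edgeR quasi-likelihood adjusted p = 0.0178). Dohh, which completes hypusine, had 9.16 and 9.69 CPM in MYC-deficient cells, against 14.5 and 15.3 CPM in MYC-WT cells, and fell 1.55-fold (adjusted p = 0.0416 in the same edgeR test). Dhps, which transfers the aminobutyl group of spermidine, had a log2 fold change of -0.35 and did not pass.

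**Figure D4:**
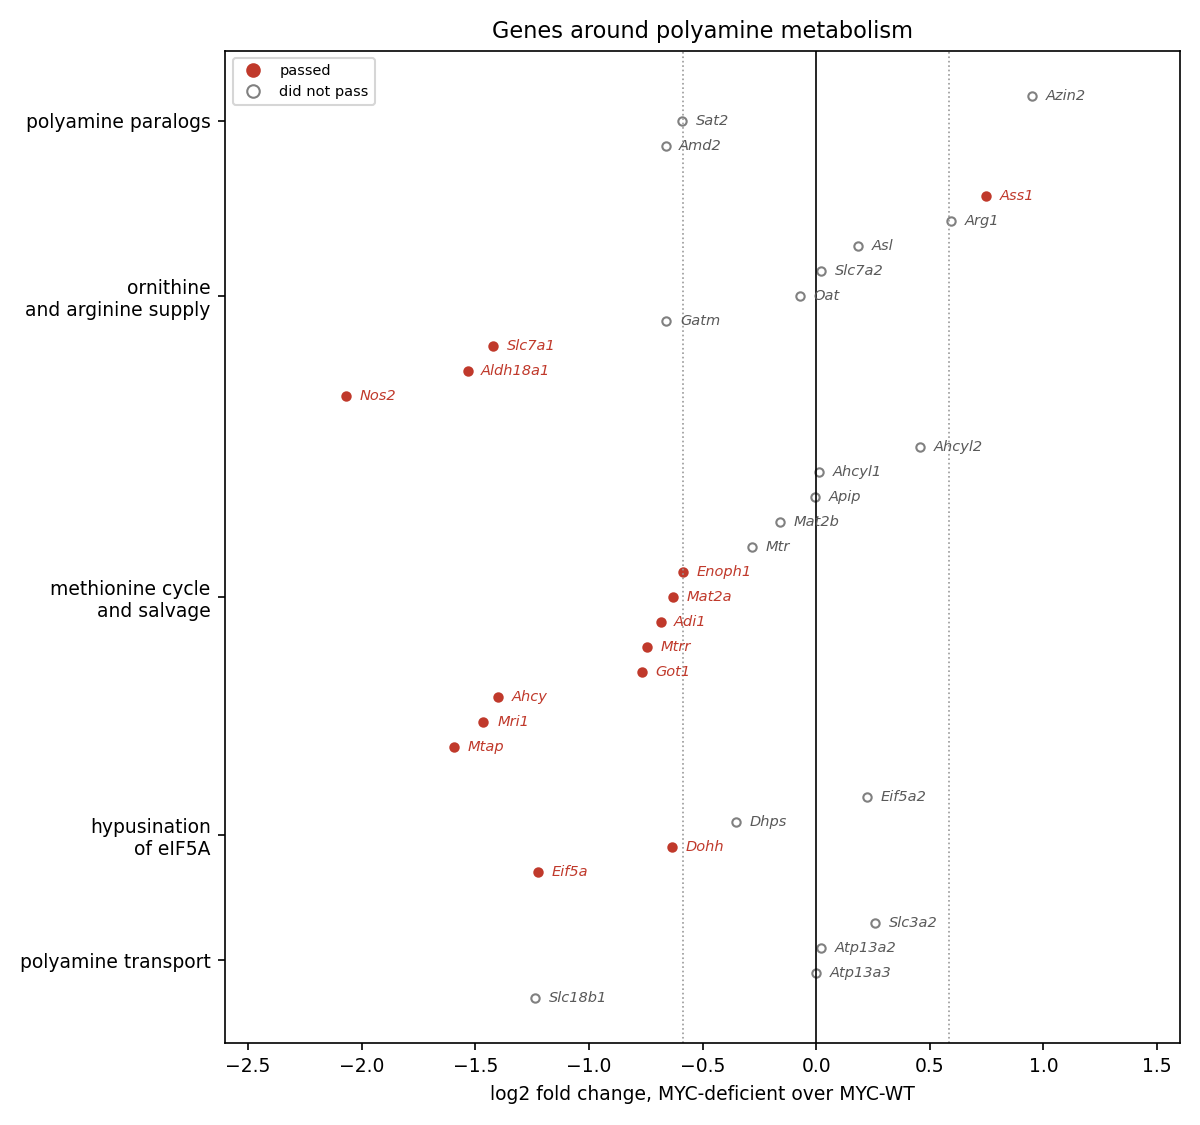
Log2 fold change (MYC-deficient over MYC-WT) of the 33 tested genes of 5 lists around polyamine metabolism, filled red where the gene passed and open where it did not, with dotted lines at a fold of 1.5. The methionine cycle and salvage list holds 8 of the 13 genes called lower, and Ass1 is the gene called higher.

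Marker lists of cell types were measured beside these genes. Of all genes tested, 9.91% were called lower and 6.06% higher by edgeR, and 16.0% were higher at an unadjusted p under 0.05. DESeq2 called 1306 lower and 1091 higher of 12394 genes. The macrophage and osteoclast precursor markers were all present, with summed levels of 5600 and 5520 CPM in MYC-deficient cells, against 4350 and 4420 CPM in MYC-WT cells, and 4 of the 8 were called higher and 1, Nfatc1, lower. The 4 were the macrophage genes Csf1r, Adgre1, Cd68 and Itgam. Of the osteoclast genes, Acp5 had 95.7 and 159.8 CPM in MYC-deficient cells, against 228.5 and 457.7 CPM in MYC-WT cells (edgeR quasi-likelihood adjusted p = 0.071). Ctsk had 85.1 and 204.1 CPM in MYC-deficient cells, against 278.6 and 558.8 CPM in MYC-WT cells (adjusted p = 0.104 in the same edgeR test). Nfatc1, Acp5 and Ctsk were thus lower without overlap, the opposite direction to the sum of their list. So was Tnfrsf11a, at a log2 fold change of only -0.06, and 35.9% of all genes tested were lower without overlap. Monocyte markers summed to 301 and 165 CPM in MYC-deficient cells, against 68.3 and 35.2 CPM in MYC-WT cells, with 2 of 8 called higher by edgeR, 4 higher at an unadjusted p under 0.05 and 5 called higher by DESeq2. Neutrophil markers summed to 282 and 101 CPM in MYC-deficient cells, against 103 and 45.4 CPM in MYC-WT cells, with 0 of the 9 tested called by edgeR, 3 higher at an unadjusted p under 0.05 and 2 called higher by DESeq2. Dendritic cell markers stayed at 8.1 CPM or less in sum in any library, although 2 of 7 were called higher by edgeR and 1 by DESeq2. T and B cell markers summed to 10.1 CPM at most, with Cd3e and Cd3d at 0, and stromal markers to 5.98 CPM at most, with 1, Dcn, called lower. Col1a1, Col1a2 and Col3a1 had 98, 70 and 6 counts in MYC-deficient replicate 1 and 0 in every other library. The sums of the macrophage and osteoclast precursor, monocyte and dendritic cell lists were higher in both MYC-deficient libraries, while the sums of the other lists overlapped. The part of these markers in the results was not tested.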

How the data were processed

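RNA was sequenced from 2 MYC-deficient and 2 MYC-WT cultures of RANKL-treated BMDMs. The authors deposited raw counts per gene for all 28443 genes, and the same counts with log2 CPM for 11109 genes kept by a filter of which no source used here tells the rule. Per the submitters' processing notes, bcl2fastq 1.8.4, fastp, STAR 2.7.3a, edgeR and mm10 were used. No source used here names the counting tool, the strand setting or the annotation.

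Counts were analysed with edgeR 4.0.16 in R 4.3.3. Genes were kept with filterByExpr (minimum count 10, minimum total 15), which left 13436, and scaled by TMM. Genotype was tested with the quasi-likelihood test on 2 residual degrees of freedom, with Benjamini-Hochberg adjustment over all genes tested. Calls needed an adjusted p under 0.05 with a fold over 1.5. Fold changes are fitted on TMM-scaled counts, and printed CPM are of total counts. The SE came from the fold change and its F statistic, and the 95% interval uses the t distribution. The study gives 2 biological replicates per genotype. Whether each was 1 mouse is not stated, so p-values measure the spread between these libraries. Between the libraries of a genotype the mean chi-square per gene was 58.5 (MYC-deficient) and 34.6 (MYC-WT), a mean that abundant genes carry, so all 4 libraries were kept as separate samples, although single genes can agree within counting error. Total counts were 27544806 to 35794698. The SD of a gene rests on 2 libraries, and low counts, such as those of Nos2, are limited by counting error as well.

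The genes and lists were chosen with earlier results of these data known, so no list is independent evidence. All 10 members were named with their values, and of each further list up to 4 called genes per direction by smallest adjusted p in full, the rest of the called genes by name. Other genes were named afterwards for their role. Alternatives covered scaling, filter, test (DESeq2 1.42.0, limma 3.58.1, edgeR's likelihood ratio test and glmTreat), fold threshold, a replicate block, leaving out each library, and sums with copies. Exon lengths are unions of GENCODE M21 exons, and promoters are from RefSeq.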

Additional observations from a re-analysis of the deposited data

How the results depend on the processing

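Of 154 alternative values of the 10 members, 143 kept their direction and side of the threshold. Settings that alter only the fold threshold reuse the main log2 fold changes, so their direction was fixed. A gene called in the main fit was bound to be called again with no fold threshold. Srm was called in all 15 alternatives tried on every member, with log2 fold changes of -2.80 to -2.31, Odc1 in 14 and Amd1 in 11. The count of members called lower was 3, with 2 at a fold over 2, 2 with a fold of 1.5 within the test, 1 to 3 when a library was left out and 1 without MYC-WT replicate 2. Amd1 was not called at a fold over 2 (log2 fold change -0.72) or with a fold of 1.5 within the test (adjusted p = 0.321). Leave-one-out log2 fold changes ran from -0.20 to 0.12 for Oaz1, from -0.05 to 0.25 for Oaz2 and from -0.17 to 0.41 for Paox, so these signs were not settled. The values of opposite sign were 0.1155 and 0.09451 for Oaz1, -0.04621 and -0.03583 for Oaz2, and -0.0782 and -0.1674 for Paox.

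The count of pathway genes called lower was 13, with 7 at a fold over 2, 4 with the fold within the test, and 4 to 10 when a library was left out (8 without MYC-WT replicate 1, 4 without MYC-WT replicate 2). The count called higher was 1, with 2 when no filter beyond 1 count was applied, 0 at a fold over 2, 0 with the fold within the test, and 0 to 2 when a library was left out.

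The replicate numbers are shared by the genotypes, but the labels do not say that they pair the cultures. Deviations from the genotype means correlated at 0.499 across genes between the same-numbered libraries. With a replicate block, 3 members were called lower and 0 higher, and 15 pathway genes were called lower and 2 higher. In that blocked edgeR quasi-likelihood fit Sms (log2 fold change -0.31, adjusted p = 0.0133), Azin1 (0.31, adjusted p = 0.0261) and Sat1 (0.31, adjusted p = 0.015) missed only the fold threshold. Over all genes tested, calls were 1331 lower and 814 higher, and 1774 and 1400 with the replicate block, 1797 and 1385 with no filter, 689 and 349 at a fold over 2, 323 and 106 with the fold within the test, 693 and 290 when MYC-WT replicate 1 was left out, and 199 and 65 in the fit that left out MYC-WT replicate 2. Where leaving out a library left a genotype with 1, that library was assumed to vary like the others. No cause of these changes was tested.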
